A study of Rattus norvegicus with 30 samples.

Results

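The comparison described here is that of ischemia-reperfusion injury (IRI) of both kidneys in the rat against a sham operation, in urine collected 3 days after the surgery. It takes the 3 IRI and the 3 sham libraries of that day and every miRNA of its table, which is 72 of the 122 miRNAs listed on any of the 5 days and 6 of the 30 libraries. The animals were male Sprague-Dawley rats, bought at 10 weeks of age. In IRI rats 1, 2 and 13 both renal pedicles were clamped for 25 minutes and then released, and sham rats 3, 6 and 9 had the same operation without clamping. Small RNA was isolated from the exosome fraction of 1 ml of urine per rat, so each rat counts as 1 replicate, with 3 in either group, and each library is a bulk sample, in which fewer exosomes and less RNA per exosome cannot be told apart. The same 6 rats gave urine at days 1, 2, 7 and 14.

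Exosomes are small vesicles that cells release when multivesicular endosomes fuse with the plasma membrane, and those of urine come largely from the epithelia that line the nephron and the urinary tract. They carry miRNAs, short RNAs that pair with messenger RNAs mainly through their seed, bases 2 to 8 from the 5′ end, and lower the output of those messengers. Ischemia injures the proximal tubule most, and in the days that follow, surviving tubule cells lose and regain their differentiated features. The miR-200 family, which holds epithelial cells in their state by repressing ZEB1 and ZEB2, miR-21, which is induced in injured and fibrotic kidneys, and the let-7 family, abundant in differentiated cells, are among the miRNAs best known in this setting.

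The results turn on a small number of mature miRNAs, shown here so that their seeds can be compared. Sequences are from RefSeq for build GRCr8, which matched 60 of the 72 miRNAs, and are written 5′ to 3′ with the seed in capitals. miR-9a-5p was the only miRNA past the adjusted threshold, and miR-21-5p and miR-378a-3p had the largest log2 differences among the 10 miRNAs of highest mean level.
rno-miR-9a-5p: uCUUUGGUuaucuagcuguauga
rno-miR-21-5p: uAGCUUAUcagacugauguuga
rno-miR-378a-3p: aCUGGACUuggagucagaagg
The next 5 were highest in 1 IRI rat.
rno-miR-200c-3p: uAAUACUGccggguaaugaug
rno-miR-141-3p: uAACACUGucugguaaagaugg
rno-miR-148a-3p: uCAGUGCAcuacagaacuuug
rno-miR-152-3p: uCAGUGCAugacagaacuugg
rno-let-7c-5p: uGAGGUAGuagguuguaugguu

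With positions counted from the 5′ end, miR-200c-3p and miR-141-3p differed by U4C inside the seed, and by C9U, G11U and U17A outside it. They are encoded beside each other on the minus strand of chromosome 4, at chr4:159209969-159209989 for miR-200c-3p and chr4:159209540-159209561 for miR-141-3p. miR-148a-3p and miR-152-3p share the seed CAGUGCA, and their differences (C9U, U10G and U20G) lie outside it, although miR-148a-3p is encoded on chromosome 4 and miR-152-3p on chromosome 10, within the gene Copz2. let-7a-5p and let-7c-5p differ by the single substitution A19G, and let-7a-5p and let-7f-5p by G12A, so their values depend on how reads of close copies were assigned. miR-21-5p maps to chr10:71902653-71902674 and miR-378a-3p to chr18:57128925-57128945, within Ppargc1b, both on the minus strand. miR-9a-5p has 3 loci with the same mature sequence, 1 on chromosome 1 and 2 on chromosome 2, whose output cannot be separated. Among the 60 miRNAs with a matched sequence, 8 seeds were shared by 25. miR-200a-3p, miR-200b-3p and miR-429 had no matched sequence, so seeds shared within the miR-200 family are not in this count.

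The values are counts that the study's authors scaled, to totals of 804378 to 919977 in 5 of the libraries and 1906282 in IRI rat 13. In each library the low values were whole multiples of 1 step, which was taken as the worth of 1 read, and this gave the depth. The listed miRNAs amounted to 691, 853 and 12739 reads in IRI rats 1, 2 and 13, against 909, 862 and 289 reads in sham rats 3, 6 and 9. IRI rat 13 therefore had 14.0 to 44.1 times the reads of each other library, and its scaled total was 2.07 to 2.37 times that of each other. Reads overlapped between the groups (ratio of geometric means 3.21, exact permutation test, two-sided, p = 0.6, where 3 against 3 cannot go below 0.1). The label of each library also gives a lane: IRI rats 1 and 2 were in lane 2, IRI rat 13 in lane 5, sham rats 3 and 6 in lane 3 and sham rat 9 in lane 4. Every lane thus held 1 group at day 3, so lane and surgery cannot be told apart, and no value within a lane can be had. Because IRI rat 13 stood apart, the results that rest on it are given with and without it.

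Of the 72 miRNAs, 33 were above 0 in all 6 libraries and 14 in exactly 3, the fewest listed. A value of 0 allows up to 3 reads, worth 3705, 2829 and 449 in IRI rats 1, 2 and 13, against 2829, 3202 and 8705 in sham rats 3, 6 and 9. For 26 miRNAs both group means were under the mean worth of 3 reads, 2328 in IRI and 4912 in sham libraries. Such limits, and the intervals below, cover counting error only. Epithelial and kidney tubule miRNAs were well represented, with 5 of 5 and 4 of 5 markers listed, while 2 of 4 erythroid, 2 of 6 leukocyte and 1 of 4 muscle markers and none of the endothelial, mesenchymal, liver or neural markers looked for were among the miRNAs analysed. The leukocyte markers (miR-142-3p and miR-342-3p) summed to 0, 4 and 5 reads in IRI rats 1, 2 and 13, against 0, 1 and 2 in sham rats 3, 6 and 9.

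The first question was which miRNAs differed between IRI and sham. Of the 72 miRNAs, 1, miR-9a-5p, rose in IRI rats at an adjusted p under 0.05 (limma on log2(value + 500), Benjamini-Hochberg over the 72, two-sided), which is 1.39% of those tested, and 0 fell. This miRNA entered the table through the IRI libraries alone, with 0 in all 3 sham rats, so its separation was set by the listing and the call is no independent support for a difference. At an unadjusted p under 0.05 there were 5 (6.94%), 4 higher (5.56%) and 1 lower (1.39%). The libraries of the groups did not overlap for 8 miRNAs (11.1%), 5 of them higher (6.94%) and 3 lower (4.17%) in IRI rats. With 3 against 3 libraries and no ties, labels given at random part the groups with a probability of 0.1. The share of 11.1% is close to that, so a lack of overlap is a description here and no sign of a difference by itself. The log2 difference was above 0 for 39 miRNAs (54.2%). The median log2 difference over all 72 was 0.13, with quartiles of -0.46 and 0.77, and it was -0.12 when each library was scaled to the same total, a shift of the median that single miRNAs follow to different extents.

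miR-9a-5p, best known from the nervous system, was low in IRI rats and at 0 in every sham rat. Its values were 7410, 2829 and 7183 in IRI rats 1, 2 and 13, from 6, 3 and 48 reads, against 0, 0 and 0 in sham rats 3, 6 and 9. The log2 difference was 3.55 (SE 0.70, adjusted p = 0.0392, limma), and the mean of 5807 ± 2582 (SD, n = 3) was at least 1.18-fold higher than the mean worth of 3 reads in a sham library. The table lists miRNAs above 0 in at least 3 libraries, and miR-9a-5p was the only one listed through the IRI libraries alone. The worth of 3 reads in sham rat 9, 8705, is above all 3 IRI values. The call was kept without IRI rat 2 (adjusted p = 0.0477) and lost without each of the other 5 rats, with adjusted p between 0.107 and 0.195, and it was also lost on log2(value + 2000) (adjusted p = 0.0764). In IRI rat 13, the deepest library, its 48 reads were 0.377% of the reads (95% Wilson interval 0.284 to 0.499). The 0 reads of sham rats 3, 6 and 9 have upper Wilson limits of 0.421%, 0.444% and 1.31%. Each of these limits is above the share of IRI rat 13, so the sham zeros do not show absence.

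miR-378a-3p, encoded in an intron of Ppargc1b and known from oxidative metabolism, was lower in each IRI rat than in any sham rat. It stood at 20995, 10373 and 3442 in IRI rats 1, 2 and 13, against 63185, 42690 and 40621 in sham rats 3, 6 and 9. The lowest IRI value came from the deepest library, and the highest sham value from rat 3. IRI rats averaged 11603 ± 8841 and sham rats 48832 ± 12473 (SD, n = 3 each), with a log2 difference of -2.31 (SE 0.81, adjusted p = 0.619, limma). Without rat 13, the lowest IRI value, the ratio of IRI to sham means was 0.321 in place of 0.238. It passed the adjusted threshold with an intensity trend in limma (adjusted p = 0.00981) and with voom weights (adjusted p = 0.0127). As a share of reads, miR-378a-3p made up 2.46%, 1.29% and 0.181% in IRI rats 1, 2 and 13, against 7.37%, 4.64% and 4.84% in sham rats 3, 6 and 9. Its relative with a close sequence, miR-378b, was 3705, 0 and 299 in IRI rats, against 943, 0 and 5803 in sham rats, which overlap.

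miR-21-5p, induced by injury in many tissues, was higher in every IRI rat. Values of 53106, 49036 and 167748 in IRI rats 1, 2 and 13 stood against 11317, 20278 and 26114 in sham rats 3, 6 and 9. The 2 IRI rats other than rat 13 were already above the highest sham rat, and rat 13 held 62.2% of the IRI sum. IRI rats averaged 89963 ± 67394 and sham rats 19236 ± 7453 (SD, n = 3 each), a ratio of 4.68 that was 2.65 without IRI rat 13, and the log2 difference was 2.03 (SE 0.78, adjusted p = 0.647, limma). The shares of reads, which do not depend on the scaling, were 6.22%, 6.1% and 8.80% in IRI rats 1, 2 and 13, against 1.32%, 2.2% and 3.11% in sham rats 3, 6 and 9, and did not overlap either. It passed the adjusted threshold with an intensity trend in limma (adjusted p = 0.0120) and under no other alternative.

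**Figure D1:**
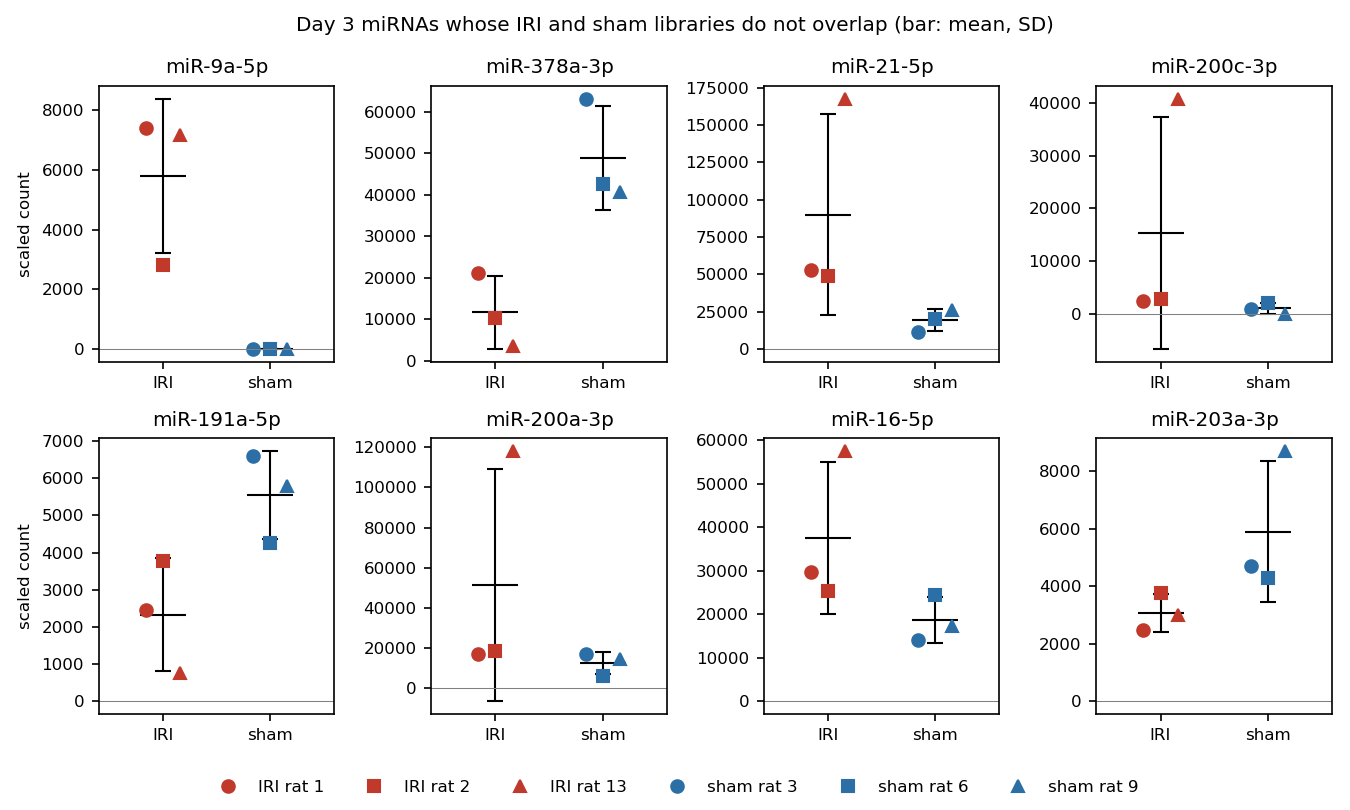
Scaled counts of the 8 miRNAs whose IRI and sham libraries did not overlap, in order of p, with 1 point per rat, IRI left and sham right, and a bar for the mean with its SD (n = 3). IRI rat 13 (red triangle) lies far above rats 1 and 2 for miR-21-5p, miR-200c-3p and miR-200a-3p, where the SD is wide enough to pass 0 for both miR-200 members, and lowest for miR-378a-3p.

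The other miRNAs whose groups did not overlap were 3 higher and 2 lower. miR-16-5p, abundant in red blood cells, was 29640, 25461 and 57612 in IRI rats 1, 2 and 13, against 14146, 24547 and 17409 in sham rats 3, 6 and 9. Its log2 difference was 0.93 (SE 0.71, adjusted p = 0.742, limma) and 0.58 without IRI rat 13, and IRI rat 2 exceeded sham rat 6 by less than the worth of 1 read in either library. The erythroid markers listed, miR-16-5p and miR-486, made up 3.47%, 3.17% and 3.04% of reads in IRI rats 1, 2 and 13, against 1.76%, 2.78% and 2.08% in sham rats 3, 6 and 9, with Wilson intervals that overlap between groups (2.34 to 5.12 in IRI rat 1, against 1.88 to 4.11 in sham rat 6). Nearly all of these reads were miR-16-5p, and miR-486 had 0, 0 and 299 in IRI rats, against 943, 1067 and 0 in sham rats. The defining miR-451 was not among the miRNAs analysed, so the part of blood in this difference was not tested. miR-191a-5p had the values 2470, 3772 and 748 in IRI rats, against 6601, 4269 and 5803 in sham rats. miR-203a-3p, an epithelial miRNA of skin and other squamous layers, had 2470, 3772 and 2993 in IRI rats, against 4715, 4269 and 8705 in sham rats. These last differences came from 2 to 7 reads a library except in IRI rat 13 for miR-203a-3p, which had 20, and their log2 differences were -1.25 (adjusted p = 0.742, limma) for miR-191a-5p and -0.79 (adjusted p = 0.771, limma) for miR-203a-3p. Without IRI rat 13 they were -0.75 and -0.78.

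In the miR-200 family IRI rat 13 stood apart from all other libraries. All 5 members, miR-200a-3p, miR-200b-3p, miR-200c-3p, miR-141-3p and miR-429, had a log2 difference above 0 (miR-200b-3p -0.44 on log2(value + 50)), 0 of 5 passed the adjusted threshold, and all 5 were highest in IRI rat 13. Their summed share of reads was 3.04% in IRI rat 1 (95% Wilson interval 2.00 to 4.6), 4.10% in IRI rat 2 (2.96 to 5.65) and 16.5% in IRI rat 13 (15.9 to 17.2). The sham shares were 2.64% in rat 3 (1.78 to 3.90), 1.86% in rat 6 (1.15 to 2.99) and 3.46% in rat 9 (1.89 to 6.25). IRI rats 1 and 2 thus had intervals that overlapped those of sham rats, and IRI rat 13 did not.

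miR-200c-3p had 2470, 2829 and 40852 in IRI rats 1, 2 and 13, from 2, 3 and 273 reads, against 943, 2135 and 0 in sham rats 3, 6 and 9, from 1, 2 and 0 reads. Only rat 13 rests on more than 3 reads. IRI rats averaged 15384 ± 22057 and sham rats 1026 ± 1070 (SD, n = 3 each), and their ratio of 15.0 became 2.58 without IRI rat 13, which held 88.5% of the IRI sum. The log2 difference was 2.58 (SE 1.12, adjusted p = 0.665, limma). miR-200a-3p, the most abundant member, had 17290, 18860 and 118217 in IRI rats 1, 2 and 13, against 16975, 6404 and 14508 in sham rats 3, 6 and 9. IRI rat 1 exceeded sham rat 3 by less than the worth of 1 read, and the ratio of means of 4.07 was 1.43 without IRI rat 13.

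The remaining members overlapped between the groups. miR-141-3p, which shares its transcript with miR-200c-3p, had 0, 4715 and 47287 in IRI rats 1, 2 and 13, against 943, 1067 and 2902 in sham rats 3, 6 and 9. Its log2 difference was 1.34 (SE 1.40, adjusted p = 0.840, limma) and turned to -0.29 without IRI rat 13. miR-200b-3p had 0, 4715 and 63298 in IRI rats, against 943, 4269 and 8705 in sham rats. This was the member that rested most on 1 library, with 93.1% of its IRI sum in rat 13 and a ratio of means of 4.89 that became 0.508 without that rat. miR-429 had 6175, 1886 and 45042 in IRI rats, against 2829, 3202 and 2902 in sham rats, and a ratio of 5.94 that became 1.35. The median log2 difference of the 5 was 1.37, beside 0.13 over all 72, and without IRI rat 13 it was 0.20, beside 0.12 over all 72, with 3 of 5 above 0. At the same total per library it was 1.05, beside -0.12 over all 72.

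The family of miR-148 and miR-152, whose best known target is the DNA methyltransferase DNMT1, followed the same library. miR-148a-3p had 1235, 4715 and 62251 in IRI rats 1, 2 and 13, from 1, 5 and 416 reads, against 943, 0 and 5803 in sham rats 3, 6 and 9, from 1, 0 and 2 reads. The ratio of means was 10.1, and 1.32 without IRI rat 13, and the log2 difference was 2.32 (SE 1.36, adjusted p = 0.742, limma). miR-152-3p, of the same seed, had 0, 2829 and 8679 in IRI rats, against 0, 1067 and 0 in sham rats, with 75.4% of its IRI sum in rat 13 and a log2 difference of 1.76, which was 0.82 without that rat. The third member, miR-148b-3p, had 0, 1886 and 2245 in IRI rats, against 943, 1067 and 0 in sham rats. Together the family made up 0.145%, 1.17% and 3.84% of reads in IRI rats 1, 2 and 13, against 0.220%, 0.232% and 0.692% in sham rats 3, 6 and 9, and the counts outside rat 13 were at most 10 reads a library.

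**Figure D2:**
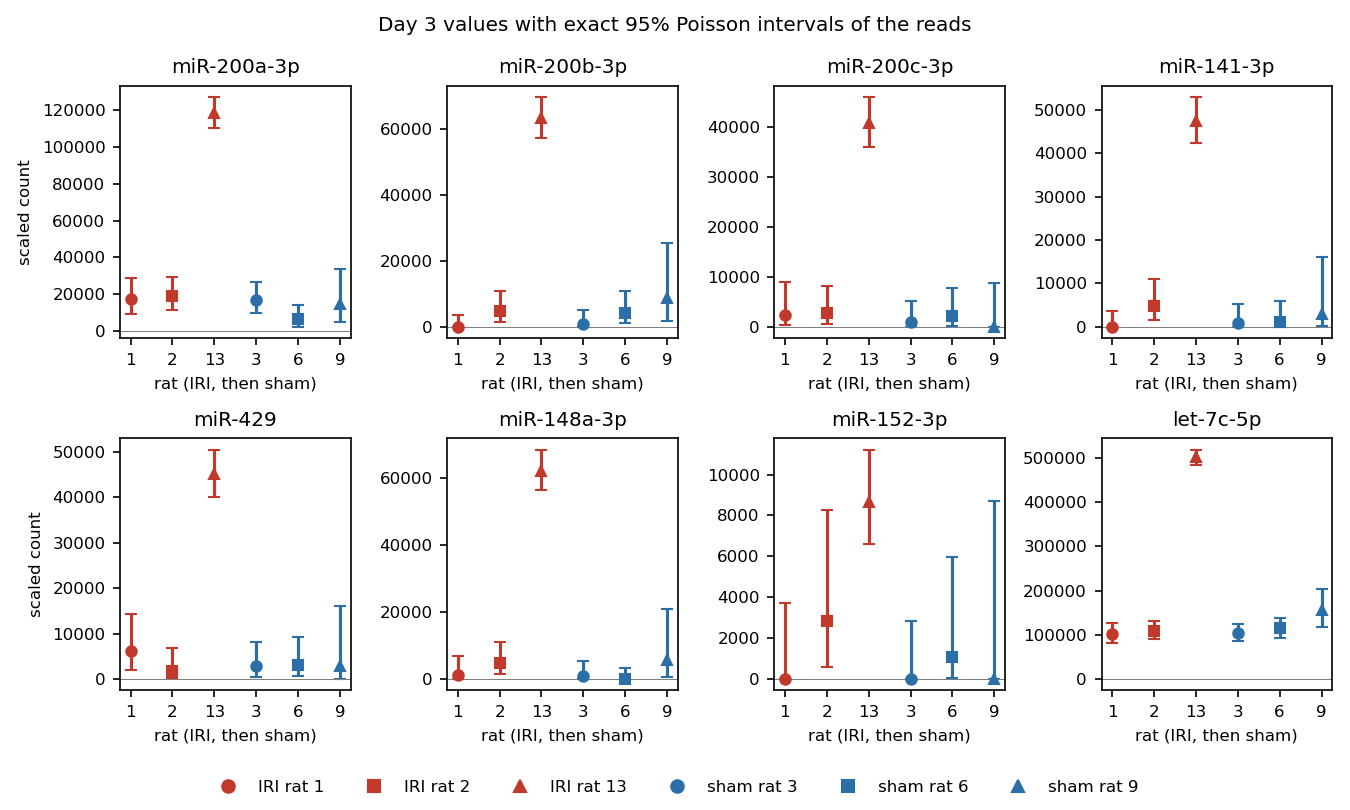
Scaled counts of the miR-200 family, miR-148a-3p, miR-152-3p and let-7c-5p in each library, IRI rats 1, 2 and 13 left and sham rats 3, 6 and 9 right, with exact 95% Poisson intervals of the reads (for a value of 0, up to the worth of 3 reads). IRI rat 13 stands above the other 5 libraries in all 8 panels, its interval clear of theirs except for miR-152-3p, while those of IRI rats 1 and 2 overlap those of sham rats.

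let-7 miRNAs, regulators of growth that are abundant in differentiated cells, were the largest group in every library. They took 45.0%, 48.8% and 55.8% of reads in IRI rats 1, 2 and 13, against 54.3%, 54.1% and 55.4% in sham rats 3, 6 and 9. Of the 8 members listed, 4 had a log2 difference above 0 and 4 below, and 0 passed the adjusted threshold. The sum covers unlike members. let-7c-5p had 101271, 108445 and 501149 in IRI rats 1, 2 and 13, against 103737, 114196 and 156682 in sham rats 3, 6 and 9, and its ratio of means of 1.90 became 0.840 without IRI rat 13. It took 11.9%, 13.5% and 26.3% of reads in IRI rats 1, 2 and 13 (95% Wilson interval 25.5 to 27.1 in rat 13), against 12.1% to 18.7% in sham rats. let-7f-5p, in contrast, made up 13%, 14.4% and 12.4% of reads in IRI rats 1, 2 and 13, against 19.6%, 23.4% and 16.6% in sham rats 3, 6 and 9, which did not overlap as shares, but on the scaled values it did (113621, 115988 and 235685 in IRI rats, against 167865, 215586 and 139273 in sham rats). Its log2 difference was -0.23 (SE 0.70, adjusted p = 0.912, limma). let-7a-5p and let-7b-5p had log2 differences of 0.41 and 0.27, and without IRI rat 13 they were 0.03 and -0.02.

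As sums, families of the kidney tubule were not highest in IRI rat 13. The miR-30 family, abundant in tubule epithelium, took 8.54%, 6.92% and 3.29% of reads in IRI rats 1, 2 and 13, against 5.72%, 6.61% and 7.27% in sham rats 3, 6 and 9, and 0 of the 4 listed members passed. IRI rat 13 was lowest only as a share. The summed scaled values of the family were 72866, 55637 and 62700 in IRI rats, against 49039, 60834 and 60932 in sham rats. miR-30a-5p was 40756, 26404 and 20651 in IRI rats, against 22634, 25614 and 31917 in sham rats. Its relatives split. miR-30d-5p was 16055, 16974 and 31574 in IRI rats 1, 2 and 13, against 17918, 14942 and 11606 in sham rats. The log2 difference of miR-30d-5p was 0.48, and 0.17 without IRI rat 13. miR-30c-5p was 2470, 3772 and 3292 in IRI rats, against 3772, 8538 and 11606 in sham rats. Its log2 difference was -1.09, and that of miR-30e-5p was 0.42. miR-26a-5p, also abundant, had the most even IRI values of the 72, with 28405, 35834 and 35615 in IRI rats and 16032, 36287 and 37720 in sham rats, and 35.9% of its IRI sum in the highest library, where an even split gives 33.3%. miR-192-5p, enriched in the renal cortex, was 4940, 12259 and 2843 in IRI rats, against 25463, 9605 and 11606 in sham rats. Its neighbour miR-194-5p was 0, 0 and 1796 in IRI rats, against 9431, 3202 and 0 in sham rats. Both had lower means in IRI rats, with log2 differences of -1.26 and -1.67 (adjusted p = 0.742 for each, limma), or -0.82 and -2.40 without IRI rat 13, and IRI rat 2 lay above sham rats 6 and 9 for miR-192-5p.

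Among the miRNAs encoded in Hox clusters, which keep the position identity of the embryo, miR-196a-5p had an unadjusted p under 0.05. It had 2470, 5658 and 748 in IRI rats 1, 2 and 13, from 2, 6 and 5 reads, against 0, 1067 and 0 in sham rats 3, 6 and 9, from 0, 1 and 0 reads. The groups overlapped, since IRI rat 13 was below sham rat 6, and the log2 difference was 1.95 (SE 0.86, adjusted p = 0.665, limma), and 2.55 without IRI rat 13. miR-196b-5p, which has the same seed, was 19760, 3772 and 6884 in IRI rats, against 18861, 6404 and 11606 in sham rats, a log2 difference of -0.45. miR-10a-5p and miR-10b-5p had log2 differences of 0.15 and 0.09. The summed share of these miRNAs was 7.53%, 4.69% and 1.57% in IRI rats 1, 2 and 13, against 5.39%, 5.34% and 3.81% in sham rats 3, 6 and 9, so that IRI rat 13 was again at an extreme, here the lowest.

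**Figure D3:**
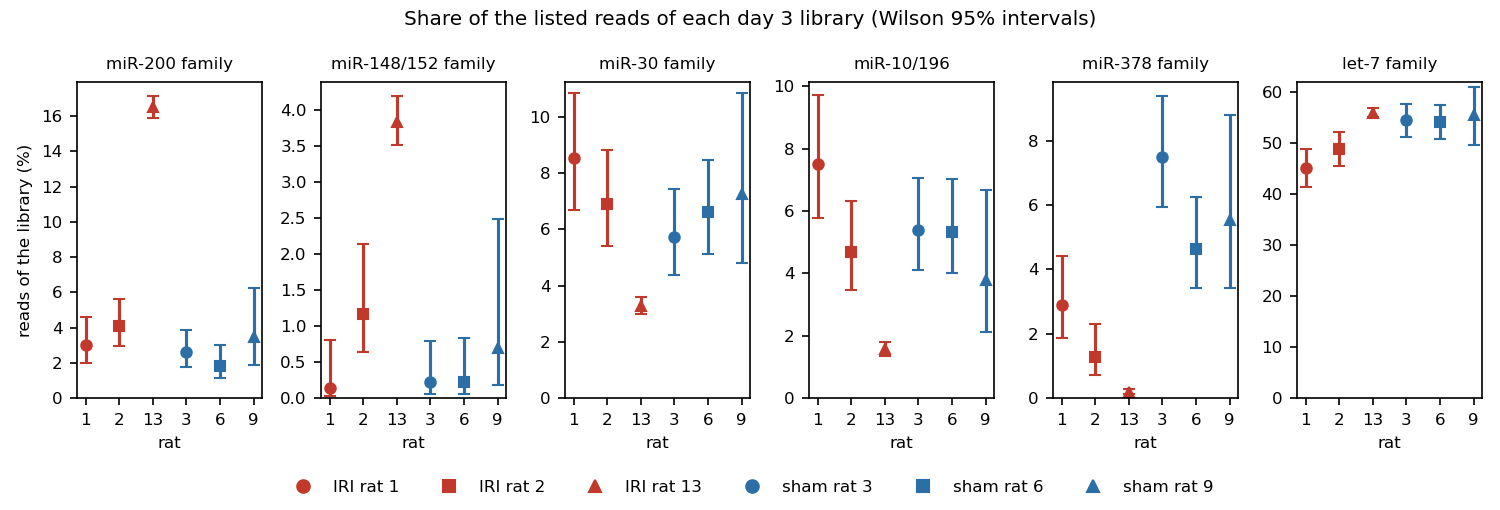
Share of the listed reads taken by 6 families in each day 3 library, IRI rats 1, 2 and 13 left and sham rats 3, 6 and 9 right, with Wilson 95% intervals. IRI rat 13 is the highest library for the miR-200 family (16.5%) and miR-148 and miR-152 (3.84%) and the lowest for miR-30 (3.29%), miR-10 and miR-196 (1.57%) and miR-378 (0.196%). On summed scaled values it is not the lowest for miR-30 (62700, against 49039 in sham rat 3).

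The second question was how far the group means rest on a single library. For each miRNA the highest library was taken as a share of the sum of its group, which is 33.3% if the rats are equal and 100% if 1 rat holds everything. The median was 60.7% over the 72 miRNAs in IRI rats, against 53.1% in sham rats. One library held over 66.7% of the IRI sum for 27 miRNAs (37.5%), against 17 (23.6%) for the sham sum. In IRI rats that library was rat 13 for 14 miRNAs (19.4%), rat 1 for 8 and rat 2 for 5. The 8 of rat 1 were miR-151-3p, miR-221-3p, miR-24-3p, miR-27a-5p, miR-345-3p, miR-3473, miR-378b and miR-99b-5p, and the 5 of rat 2 were let-7d-3p, miR-142-3p, miR-1b, miR-30a-3p and miR-423-3p. These rested on 2 to 9 reads in rat 1 and on 2 to 5 reads in rat 2. Those of rat 13 included the whole miR-200 family, miR-148a-3p, miR-152-3p, let-7c-5p and miR-101a-3p. The other 5, let-7g-5p, miR-194-5p, miR-486, miR-503-3p and miR-99a-5p, were at 0 in IRI rats 1 and 2, so that all of their IRI sum came from rat 13. Their values there were 2843, 1796, 299, 299 and 1197, from 19, 12, 2, 2 and 8 reads. All are under the 3705 that a 0 allows in IRI rat 1, and all but let-7g-5p under the 2829 of IRI rat 2. A share of 100% is thus within the counting limit of the shallower libraries.

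Level and single-library weight went together in part. Among the 36 miRNAs with the lower mean levels, 19 had over 66.7% of the IRI sum in 1 library, with a median highest share of 75.2% in IRI rats and 59.1% in sham rats. Among the 36 with the higher levels there were 8, with a median of 52.9% in IRI rats and 46.6% in sham rats. Those 8 were miR-3473, which rested on IRI rat 1, and let-7c-5p, miR-148a-3p and the miR-200 family, which all rested on IRI rat 13. The mean level includes IRI rat 13, so a high value in that rat itself moves a miRNA towards the higher levels. The place of IRI rat 13 among those 8 is therefore set in part by how level was defined. Scaling each library to the same total left 31 miRNAs over 66.7% in IRI rats and 17 in sham rats, and IRI rat 13 was then the highest IRI library for 16 miRNAs, against 29 (40.3%) as deposited.

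**Figure D4:**
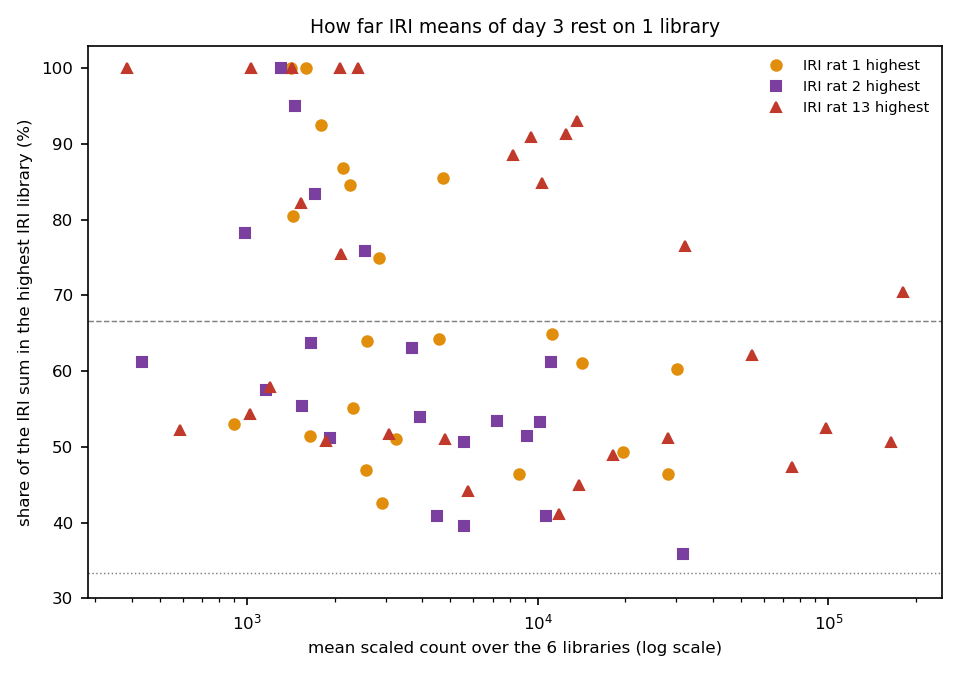
Share of the IRI sum held by the highest IRI library (y axis, %) against the mean scaled count over the 6 libraries (x axis, log scale), with 1 point for each of the 72 miRNAs and the marker giving the highest IRI rat. The dashed line is at 66.7% and the dotted line at 33.3%, an equal split. Above the dashed line, all but 1 of the 8 points among the 36 higher levels are triangles, which mark IRI rat 13. The mean on the x axis includes that rat, so a high value there moves a point to the right.

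IRI rat 13 was the highest of the 6 libraries for 21 miRNAs and the lowest for 10. At the same total per library it was the highest for 10 and the lowest for 23. The 10 highest were the 5 miR-200 members, miR-148a-3p, miR-152-3p, let-7c-5p, let-7d-5p and miR-21-5p. The set that was lowest included miR-378a-3p, miR-125a-5p, miR-192-5p, miR-30a-5p, miR-10a-5p, miR-10b-5p and both miR-26 members. Each other library was also the highest for some miRNAs and the lowest for others, as deposited 12 and 12 for sham rat 9 and 14 and 9 for IRI rat 1. The part of depth or lane in these counts was not tested.

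Leaving out 1 rat at a time showed what each contributed to the direction of the means. Without IRI rat 13 the difference in means changed sign for 12 of 72 miRNAs (16.7%), 4 towards lower and 8 towards higher in IRI rats, against 8 without IRI rat 1 and 10 without IRI rat 2. In the sham group the count was 7 without rat 3, 10 without rat 6 and 9 without rat 9. The count without IRI rat 13 was thus the highest of the 6, as it was at the same total per library, where it was 14, against 6 to 10 without each other rat. The ratio of means moved by more than 2-fold for 9 miRNAs without IRI rat 13, against 6 and 4 without IRI rats 1 and 2, and 2, 4 and 3 without sham rats 3, 6 and 9. At the same total per library 5 miRNAs moved without IRI rat 13, against 9 and 9 without IRI rats 1 and 2. Without the sham rats there were 2, 4 and 3. These counts, and those past 1.5-fold, leave out miRNAs whose ratio was 0 or undefined with or without the rat. On either scale these were 6 for IRI rat 13, 3 and 2 for IRI rats 1 and 2, and 4, 5 and 2 for sham rats 3, 6 and 9. The counts past 2-fold thus do not settle which IRI rat moved most ratios. A move past 1.5-fold was most frequent without sham rat 9, the shallowest library, at 23 miRNAs, beside 12 without IRI rat 13, and at the same total the counts were 25 and 10, with 18 and 18 without IRI rats 1 and 2. The 12 whose sign turned without IRI rat 13 included let-7b-5p, let-7c-5p, miR-200b-3p and miR-101a-3p towards lower, and miR-10b-5p, miR-125a-5p, miR-27b-3p and miR-3473 towards higher.

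miR-125a-5p shows the second kind. It was 25935, 13202 and 3292 in IRI rats 1, 2 and 13, against 13203, 18143 and 11606 in sham rats 3, 6 and 9. The ratio of means was 0.988, and 1.37 without IRI rat 13, the lowest library. miR-125b-5p, which has the same seed, was 12350, 5658 and 1197 in IRI rats, against 1886, 6404 and 0 in sham rats, and its log2 difference of 1.34 was 2.1 without IRI rat 13. miR-22-3p was 7410, 4715 and 2394 in IRI rats, against 943, 1067 and 2902 in sham rats, with log2 differences of 1.32 with and 1.7 without that rat. None of these passed the adjusted threshold in either fit (limma). Of all 72 miRNAs, 40 had a log2 difference above 0 without IRI rat 13 (55.6%) and 31 at the same total per library (43.1%), against 39 as deposited.

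**Figure D5:**
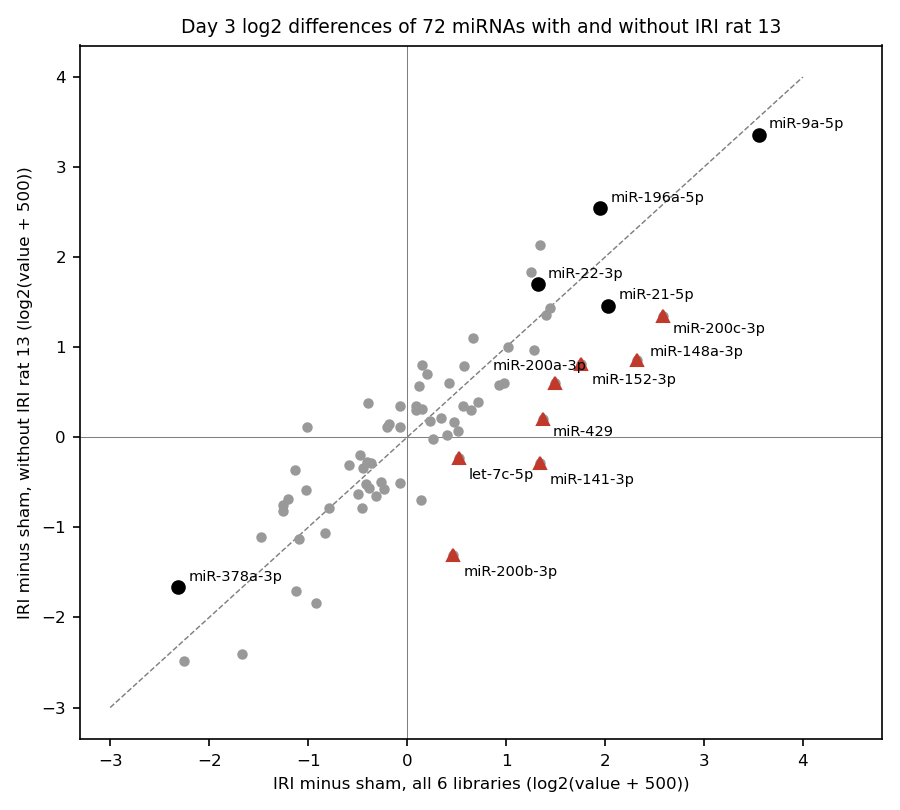
Log2 difference, IRI minus sham on log2(value + 500), of each of the 72 miRNAs with all 6 libraries (x axis) and without IRI rat 13 (y axis), with equality as the dashed line. Red triangles are the miR-200 family, miR-148a-3p, miR-152-3p and let-7c-5p, which all lie under the line. miR-378a-3p (-2.31 and -1.66) keeps its direction, miR-9a-5p (3.55 and 3.36) could not turn with every sham value at 0, and miR-141-3p, miR-200b-3p and let-7c-5p turn below 0.

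The values of the other days are set beside those of day 3 for the miRNAs on which the comparison turned. They come from the same 6 rats and from tables scaled day by day, so no test joins them. miR-378a-3p was lower in every IRI rat than in any sham rat on each of the 5 days, with log2 differences of -1.32, -2.55, -2.31, -1.16 and -0.47 at days 1, 2, 3, 7 and 14. For miR-21-5p the log2 differences were 1.19, 1.08, 2.03, 1.39 and 1.27, and the groups did not overlap at days 3, 7 and 14. miR-9a-5p was less steady: at day 2 it had 0, 5957 and 93820 in IRI rats 1, 2 and 13, against 0, 4883 and 2058 in sham rats 3, 6 and 9, and at day 1 sham rat 9, at 8428, was above all 3 IRI rats.

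For IRI rat 13, the deposited values of miR-200c-3p, miR-200a-3p and miR-148a-3p were highest in the day 3 table. miR-200c-3p in that rat was 14558, 13057, 40852, 1199 and 6446 at days 1, 2, 3, 7 and 14, and miR-200a-3p was 41766, 60125, 118217, 13190 and 19337. miR-148a-3p was 23097, 21691, 62251, 1199 and 9208 on the same days. IRI rat 13 was in another lane at days 1 and 2, lane 4, and its depth was 50705 and 10542 reads then. Its scaled total was 1151967 and 1110047 then, against 1906282 at day 3, so no difference between days is drawn from these values. A sham library also stood high at day 2, when sham rat 9 had the highest let-7c-5p (412317) and miR-148a-3p (40477). Its miR-200a-3p was 59686, beside 60125 in IRI rat 13. Its miR-200c-3p was 11663, below 20381 and 13057 in IRI rats 1 and 13. Over all listed miRNAs, 1 library held more than 66.7% of the IRI sum for 20 of 110 (18.2%), 28 of 86 (32.6%), 27 of 72 (37.5%), 12 of 68 (17.6%) and 17 of 79 (21.5%) at days 1, 2, 3, 7 and 14.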

How the data were processed

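Reads of urine exosome small RNA (QIASeq miRNA libraries) were trimmed by the authors with Cutadapt, aligned to the rat genome (version 5) with Bowtie and the miRDeep2 mapper in CAP-miRseq, and counted with HTSeq, in versions not given in the sources used here. The deposited signal values are those counts after a scaling by the authors, to totals of 804378 to 919977 at day 3 but 1906282 in IRI rat 13, by a step not given in the sources used here. The authors' own fold changes, log2 levels, likelihood ratio scores, p-values and FDRs from edgeR are also deposited and were not used. Values up to 20 reads were all whole multiples, within 0.1 read, of a library's step, and this step was taken as what 1 read is worth. Groups were compared with limma 3.58.1 in R 4.3.3 (lmFit, eBayes, surgery only) on log2(value + 500), two-sided, with Benjamini-Hochberg adjustment over the 72 miRNAs and a threshold of 0.05. Other values used SciPy 1.17.1, NumPy 2.4.6 and pandas 2.3.3 in Python 3.11.15.

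Named were miRNAs with an unadjusted p under 0.05 or groups that did not overlap, the 10 of highest mean, those with IRI rat 13 over 66.7% of the IRI sum and means at least 2-fold apart, and members of family lists. The question, the members and the lists were chosen with earlier results of these data known. Alternatives were other added constants (50, 2000, 0.5 read), the same total per library, recentring, keeping miRNAs above 0 in 5 or more libraries, an intensity trend, voom, library weights, other thresholds, and leaving out each rat. No 2 libraries held the same values. Labels number the rats, and p-values measure the spread between rats.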

Additional observations from a re-analysis of the deposited data

Results flagged for a closer look

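miR-191a-5p was singled out because the groups parted in opposite directions on different days. At day 3 it was lower in every IRI rat (2470, 3772 and 748 in IRI rats 1, 2 and 13, against 6601, 4269 and 5803 in sham rats 3, 6 and 9), and at day 14 higher in every IRI rat (4670, 4030 and 3683 in IRI rats, against 1298, 1094 and 0 in sham rats). The log2 differences were -1.25 and 2.03, which lie -3.28 apart (day 3 minus day 14). Over all listed miRNAs, the groups did not overlap for 11.1% at day 3 and 22.8% at day 14. The difference between the days was not tested, since each table was scaled on its own, and the day 3 values rest on 2 to 7 reads a library.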

How the results depend on the processing

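The single call at an adjusted p under 0.05 depended on the settings. With limma, 0 miRNAs passed on log2(value + 2000), with a constant of 0.5 read, after recentring on the median, with a filter to those above 0 in 5 or more libraries, which leaves miR-9a-5p untested, or at an adjusted p under 0.01. At an unadjusted p under 0.05 these fits had 6, 7, 6, 3 and 5 miRNAs. With an intensity trend 2 passed (miR-21-5p, adjusted p = 0.0120, and miR-378a-3p, adjusted p = 0.00981) and with voom 1, which was miR-378a-3p (log2 difference -4.62, adjusted p = 0.0127) and not miR-9a-5p (adjusted p = 0.184). Leaving out 1 rat gave 0 to 1 calls and 2 to 9 miRNAs at an unadjusted p under 0.05, where voom gave 17 and the filter 3. Without 1 rat the groups did not overlap for 12 to 17 miRNAs, against 8 with all (fewer libraries part more easily). Over 66.7% of the IRI sum lay in 1 library for 8 miRNAs under the filter, and 58 or 13 miRNAs passed when the share was set at 50% or 90%. miR-200b-3p reversed to -0.44 on log2(value + 50), -1.30 without IRI rat 13 and -0.27 without sham rat 3 (range over the rats left out -1.30 to 2.19), miR-141-3p to -0.29 without IRI rat 13 (range -0.29 to 3.00), and miR-196a-5p to -0.44 with voom, where the median of all 72 was -1.09. The cause was not tested. Of 207 values of 14 miRNAs under the alternatives, 189 kept direction and side of the threshold. All but miR-9a-5p had no call to lose, so keeping their side says little about stability. All 10 values that lost the call were of miR-9a-5p, whose adjusted p ran from 0.00547 to 0.222. It kept the call only on log2(value + 50), at the same total per library, with library weights and without IRI rat 2. No paired analysis was possible because IRI and sham rats share no numbers. Depth limits rare miRNAs, since a 0 in sham rat 9 allows a value of 8705.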
